A study of Mus musculus with 12 samples.

Results

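The extracellular matrix genes of the arcuate nucleus (ARC), a cell group at the base of the hypothalamus, were examined by bulk RNA sequencing in female mice. Genes were taken by symbol: every collagen chain (Col), every laminin chain (Lama, Lamb, Lamc), Nid1, Nid2, Fn1, Hspg2, Acan, Bcan, Ncan, Vcan, Dcn, Bgn, Lum, Tnc, Tnr, Sparc and Sparcl1. The table of 16640 genes held 69 of them, and 68 passed a filter that asked for a value of at least 1 in at least 2 libraries, as did 15801 genes in all. Col6a6 did not pass. Control animals were Esr1fl/fl, with the gene for oestrogen receptor alpha flanked by loxP sites, and mutants carried the same alleles with Cre recombinase driven by Nkx2-1, so that Esr1 is deleted wherever Nkx2-1 has been expressed and not in the ARC alone. Both genotypes were studied at 27 weeks of age on chow or after 17 weeks of high-fat diet (HFD), with 3 control chow, 4 mutant chow, 2 control HFD and 3 mutant HFD libraries. The comparisons ask how matrix transcripts of the ARC differ with the mutation and with the diet.

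Collagens are built from chains that wind into triple helices. Fibrillar collagens (types I, II, III, V, XI, XXIV and XXVII) form the fibres of connective tissue, which in the brain lies mainly in the meninges and around larger vessels. Basement membranes are thin sheets under endothelial cells and around pericytes, made of type IV collagen, laminin trimers, nidogens and the heparan sulphate proteoglycan perlecan (Hspg2). The space between brain cells holds little fibrillar collagen and is filled by hyaluronan with the lecticans (Acan, Bcan, Ncan, Vcan) and tenascins, made by astrocytes, oligodendrocyte precursors and neurons.

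Values are the deposited abundances, which are scaled for gene length and so can be set side by side between genes, and their scale is near that of TPM. The depth of each library is unknown, so no counting error is given. Values in brackets after a mean are SD over libraries. Fold changes are log2 differences of abundance + 1 with their SE from limma, which understate the change of low genes, and a gene was called when its p-value, adjusted by Benjamini-Hochberg over all 15801 genes, was under 0.05. Nothing says how many animals stand behind a library, so the p-values measure the spread between these libraries only. Since a tissue block was sequenced, fewer cells of a type and less RNA per cell cannot be told apart.

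Esr1 was 7.29 to 19.8 in control chow and 1.65 to 6.05 in mutant chow, but 10.7, 16.6 and 11.9 in the libraries labelled mutant HFD, beside 15.3 and 22.4 in control HFD. For diet in mutants Esr1 itself differed by 1.84 ± 0.41 (SE, limma, unadjusted p = 0.000663, adjusted p = 0.455). The label of those 3 libraries is therefore not borne out by Esr1, and they are called by their label throughout. Each comparison that uses them (diet in mutants, genotype on HFD, the interaction and the averaged ones) rests on that label, which was not tested further. ARC neuron markers were present in all 12 libraries (Pomc at 1009 to 4249, Agrp at 65.9 to 787). Control HFD replicate 1 stood apart, with Ttr, the choroid plexus transthyretin gene, at 2112 against 0 to 19.2 elsewhere, and with the lowest summed ARC neuron markers (2060.2 against 3498 to 8041). Mutant chow replicate 3 had the most genes listed at 0 (1768 against 201 to 1019).

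The highest matrix genes were not fibrillar collagens. Sparc, a secreted glycoprotein that binds collagen, averaged 1120.2 over the 12 libraries and its relative Sparcl1 (hevin), an astrocyte protein that promotes synapse formation, averaged 827. Bcan (brevican), the main lectican of adult brain, averaged 245. Col23a1, a membrane-spanning collagen, averaged 101. These were the only members above 100, while 18 members lay between 10 and 100, 42 between 1 and 10, and 5 under 1.

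Type I and type III collagen, the commonest fibre collagens of the body, were low, with Col1a2 at 7.56, Col1a1 at 5.31 and Col3a1 at 4.33. In the fibrillar class Col11a2 (18.5), Col27a1 (10.6) and Col2a1 (8.74), chains best known from cartilage, were higher on this per-length scale. Among basement membrane genes Lamb2, the beta chain of vascular laminins, led at 31.5, followed by the type IV chains Col4a2 (25.4) and Col4a1 (19.2) and the gamma chain Lamc1 (19.2). The other 4 type IV chains, Col4a3 to Col4a6, were between 1.70 and 9.79.

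Col25a1, a membrane collagen of neurons that binds amyloid beta, averaged 82.6, and with Col23a1 it made up nearly all of its class. Dcn (decorin), a small proteoglycan on collagen fibrils that is made by meningeal and perivascular fibroblasts, averaged 79.1 and was far above its relatives Bgn (16.6) and Lum (7.93). Ncan (20.5), Tnr (19.5) and Vcan (8.99) were measured at moderate levels. Acan (0.792), the core of perineuronal nets, and Tnc (0.925) were at or near the limit of measurement.

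**Figure D1:**
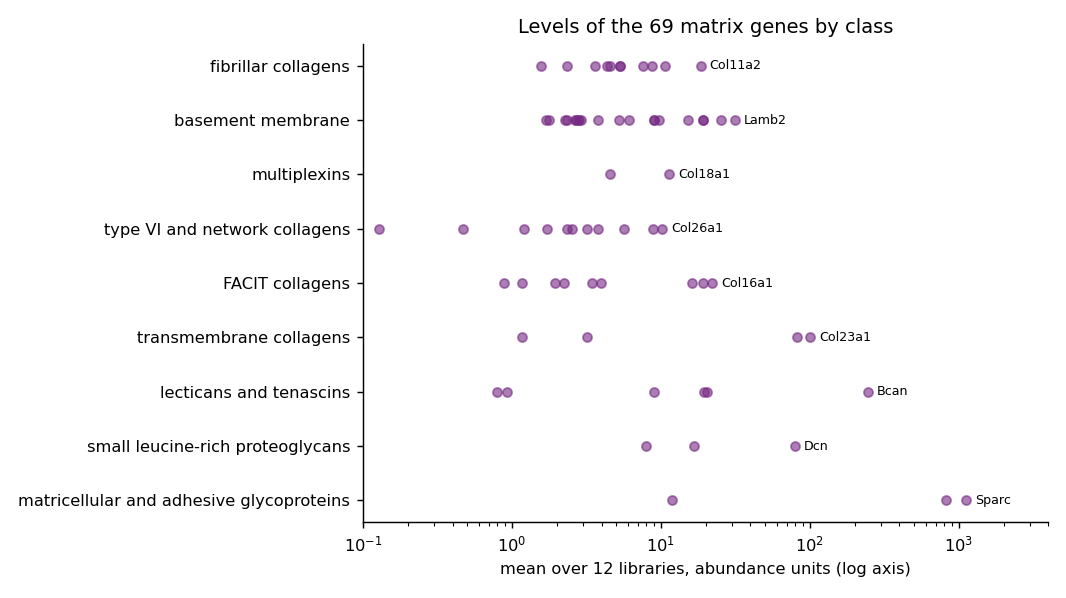
Mean abundance over 12 libraries (log axis) for each of the 69 matrix genes, with 1 point per gene, 1 line per class and the name of the highest gene of each class. Sparc, Sparcl1, Bcan and Col23a1 lie above 100, and the fibrillar collagens lie between 1.56 and 18.5.

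The genes were set against each other in 7 comparisons, and in none did a matrix gene pass the adjusted threshold. Among all genes tested, genotype on chow and diet in mutants each had 3 past it (0.019%), while genotype on HFD and genotype averaged over diets each had 1 (0.00633%). The other comparisons (diet in controls, their interaction, and diet averaged over genotypes) had 0 (0%), beside 1.44% higher and 2.1% lower, 1.56% and 1.87%, and 1.6% and 3.69% of all genes at an unadjusted p under 0.05 (limma). The counts that follow are therefore of genes with an unadjusted p under 0.05 (limma), each beside the share of all genes that met the same limit. They describe where the largest differences lay and are not calls.

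The libraries labelled mutant HFD had the lowest mean when each matrix gene was weighted alike. This did not hold for every class, since small leucine-rich proteoglycans averaged 4.16 there and 3.96 in control HFD. Sparc, the highest member, averaged 1299 there, beside 1061 in control chow, 1054 in mutant chow and 1074 in control HFD. Averaged over the 69 genes on the log2 scale, the 3 libraries labelled mutant HFD were at 2.70, 2.72 and 2.59, below each of the other 9 libraries, which ran from 2.76 to 3.22. The difference from mutant chow was -0.37, against a within-group SD of 0.16. The same mean over all 15801 genes differed by -0.06 (within-group SD 0.04). No test was made of these means.

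Fibrillar collagens differed more than basement membrane genes, but within the spread. The mean of the 11 fibrillar genes was 2.07, 2.30 and 2.15 in the libraries labelled mutant HFD, and 2.58, 2.85, 3.39 and 2.34 in mutant chow. Every HFD library was below every chow library, though the highest of the former and the lowest of the latter were close. The difference of the means was -0.62 (within-group SD 0.31), and without mutant chow replicate 3, the highest library, it was -0.42, with the fibrillar mean minus the basement membrane mean then differing by -0.05.

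For the 20 basement membrane genes the means were 2.50, 2.28 and 2.28 in the libraries labelled mutant HFD and 2.63, 2.71, 2.73 and 2.81 in mutant chow. These did not overlap either, and the difference was -0.37 (within-group SD 0.22). The fibrillar mean minus the basement membrane mean differed by -0.25 between the diets in mutants, less than its within-group SD of 0.32, so the classes could not be told apart. Lecticans and tenascins averaged 3.59 in mutant chow and 3.63 in the libraries labelled mutant HFD, a difference of 0.04 (within-group SD 0.20).

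**Figure D2:**
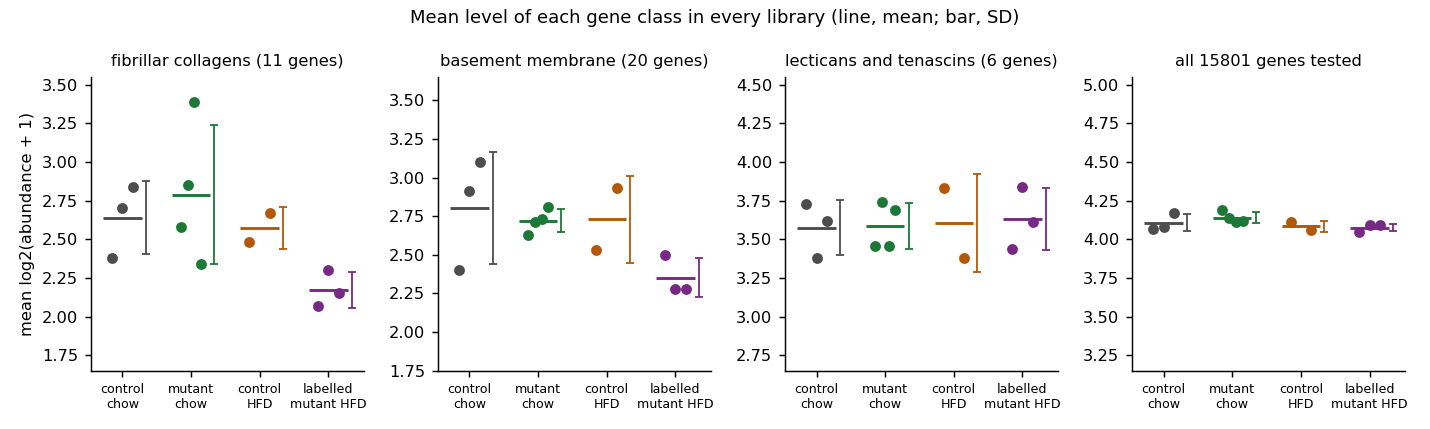
Mean log2(abundance + 1) of 3 matrix gene classes and of all 15801 genes tested, with 1 point per library, the group mean as a line and the SD as a bar, on axes of equal span. In the fibrillar and basement membrane panels the 3 libraries labelled mutant HFD lie below the 4 mutant chow libraries, which is not so for lecticans and tenascins.

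Gene by gene, 8 of 68 members (11.8%) had an unadjusted p under 0.05 in the lower direction for HFD against chow in mutants, beside 3.94% of all genes, and 0 in the higher direction, beside 1.44%. Estimates were lower for 53 of 68 members (77.9%), against 53.1% of all genes, with a median log2 difference of -0.33 against -0.02. The lower count was 5 without mutant chow replicate 3, beside 3.16% of all genes, and the 53 lower estimates did not change in number. Quantile normalisation gave 7 lower and 1 higher, beside 3.02% and 2.41% of all genes.

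Col4a1, which with Col4a2 forms the commonest type IV collagen of vessel walls, had the smallest p-value. It was 27.9, 22.9, 33.0 and 26.7 in mutant chow and 12.1, 14.2 and 8.18 in the libraries labelled mutant HFD. Every HFD library was below every chow library. The log2 fold change was -1.22 ± 0.29 (SE, limma, unadjusted p = 0.00102, adjusted p = 0.564), and in 16 of 16 alternatives the unadjusted p stayed under 0.05. Col4a1 in controls was 15.7, 23.9 and 15.8 on chow and 9.81 and 20.7 on HFD, so that mutant chow had the highest mean of the groups, 27.6 (SD 4.17, n = 4), while control chow averaged 18.5 (SD 4.70, n = 3). These chow groups overlapped, and their difference was 0.57 ± 0.29 (SE, limma, unadjusted p = 0.0672, adjusted p = 0.982).

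Col4a2, its partner chain, had a smaller difference of the same sign in mutants, from 29.8 (SD 6.48, n = 4) to 20.1, or -0.54 ± 0.32 (SE, limma, unadjusted p = 0.110, adjusted p = 0.924). These genes lie head to head on chromosome 8 (GRCm38), Col4a1 on the minus strand from 11198423 to 11312826, and their first exons overlap by 22 bases on opposite strands. Whether reads were counted by strand was not stated. The other paired type IV genes, Col4a3 with Col4a4 (71 bases between starts, chromosome 1) and Col4a5 with Col4a6 (1308 bases, X chromosome), had no member with an unadjusted p under 0.05 in any comparison.

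Col9a3, a chain of the type IX collagen that decorates fibrils, had the next smallest p-value. It was 12.6, 30.1, 20.6 and 30.1 in mutant chow and 12, 7.30 and 10.8 in the libraries labelled mutant HFD. Those 3 were the lowest of the 12, though mutant chow replicate 1 was close to them. The log2 fold change was -1.09 ± 0.30 (SE, limma, unadjusted p = 0.00318, adjusted p = 0.568). Against control HFD (18.3 and 25.1) it was -1.05 ± 0.36 (SE, limma, unadjusted p = 0.0119, adjusted p = 1). Its partner Col9a2 was at 20.5, 22.8 and 21.7 in the same 3 libraries and at 10.5 to 19.4 in mutant chow. The Col9a2 estimate was of the opposite sign, at 0.55 ± 0.28 (SE, limma, unadjusted p = 0.0738, adjusted p = 0.916). The other chain, Col9a1, was lower like Col9a3, at -0.66 ± 0.36 (SE, limma, unadjusted p = 0.0894, adjusted p = 0.916). Col9a3 shares 234 exon bases with Tcfl5 on the other strand, a gene not analysed here.

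Fibrillar chains made up 4 of the 8 members. Col1a1 was 4.01, 7.39, 8.37 and 5.58 in mutant chow and 3.12, 3.23 and 2.88 in the libraries labelled mutant HFD, with no overlap and a log2 fold change of -0.81 ± 0.35 (SE, limma, unadjusted p = 0.040, adjusted p = 0.916). Its partner in type I collagen, Col1a2, differed by less, at -0.24 ± 0.25 (SE, limma, unadjusted p = 0.351, adjusted p = 0.948). Col11a2 (-1.49 ± 0.54), Col27a1 (-1.24 ± 0.46) and Col24a1 (-1.04 ± 0.40) had larger estimates. For Col11a2 and Col27a1 1 library carried much of the chow mean, since mutant chow replicate 3 had 64.2 against 12.5 to 22.1 for Col11a2 and 28.9 against 8.98 to 10.5 for Col27a1.

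Fn1 (fibronectin), an adhesive glycoprotein of plasma and vessel walls, was 10.7, 17.6, 27.5 and 13.2 in mutant chow and 9.70, 8.19 and 6.60 in the libraries labelled mutant HFD. The groups did not overlap, and the log2 fold change was -0.93 ± 0.34 (SE, limma, unadjusted p = 0.0189, adjusted p = 0.825). Col12a1, which links fibrils to other matrix, was the last of the 8, at -1.21 ± 0.47 (SE, limma, unadjusted p = 0.0244, adjusted p = 0.864), and without mutant chow replicate 3 its unadjusted p was 0.0682. In the other direction Lamb1 had 4.07 in mutant chow and 6.24 in the libraries labelled mutant HFD, an estimate of 0.54 ± 0.29 (SE, limma, unadjusted p = 0.0908, adjusted p = 0.916).

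**Figure D3:**
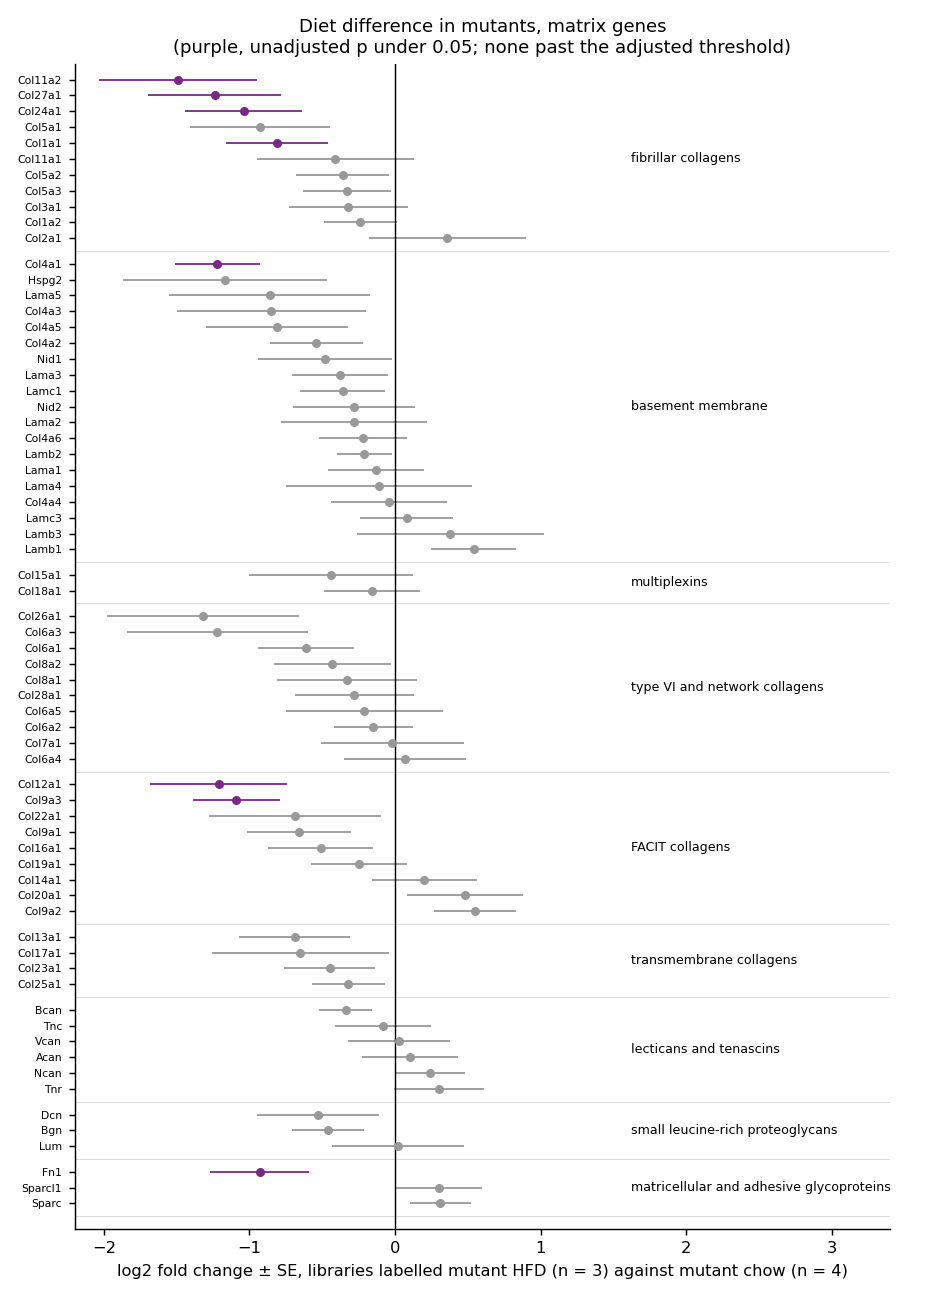
Log2 fold change with SE of the matrix genes tested, leaving out 1 that is not reported here, libraries labelled mutant HFD (n = 3) against mutant chow (n = 4), ordered by class, with purple for an unadjusted p under 0.05. Most points lie left of 0, the 8 purple points are all on that side, and lecticans and tenascins lie around 0.

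Markers of cells known to make this matrix were compared between the same groups. Summed abundance of 11 meningeal fibroblast markers was 169 to 311 in mutant chow and 114 to 168 in the libraries labelled mutant HFD, of 10 endothelial markers 133 to 281 and 125 to 157, and of 9 mural cell markers 83.8 to 107 and 79.7 to 95.6. The fibroblast sums did not overlap, though the nearest libraries were at 169 and 168, and the endothelial and mural sums did. All markers of these lists were in the table, and of them only Kcnj8, a pericyte channel gene, was at 0 in any library. Summed tanycyte markers, from the ventricle-lining glia of this region, were 444 to 778 and 352 to 435, which did not overlap. The largest fibroblast marker, Mgp (76.4 to 169 and 44.1 to 81.3), and the largest tanycyte marker, Vim (138 to 323 and 119 to 154), overlapped singly. Sums of astrocyte (851 to 1403 and 791 to 1401), oligodendrocyte precursor (58.5 to 124 and 79.5 to 93.7) and neuron markers (937 to 1247 and 1135 to 1344) also overlapped. The part of these cell markers in the matrix differences was not tested.

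Genotype on chow gave no common direction. Of 68 members 3 (4.41%) were higher in mutants with an unadjusted p under 0.05, beside 2.59% of all genes, and 5 (7.35%) lower, beside 1.75%. Estimates were lower for 33 of 68, and the median was 0.01, as over all genes. Rescaling each column to the same total gave 5 higher and 1 lower, beside 3.28% and 1.05% of all genes. Quantile normalisation gave 1 higher and 6 lower, beside 2.16% and 2.29%. Without control chow replicate 3, mutant chow replicate 1 or mutant chow replicate 3 there was 1 lower, beside 1.8%, 2.09% and 1.48% of all genes. Without mutant chow replicate 4 there were 2, beside 1.85%, and without mutant HFD replicate 3 there were 3, beside 1.66%. The 3 higher became 1 without control chow replicate 1, beside 2.92% of all genes, and 6 without control chow replicate 2, beside 2.41%.

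Bcan was the abundant matrix gene among them. It was 211, 207 and 193 in control chow and 272, 258, 355 and 273 in mutant chow, with every mutant library above every control library. The ratio of means was 1.42 and the log2 fold change 0.50 ± 0.18 (SE, limma, unadjusted p = 0.0185, adjusted p = 0.982). On HFD it was 206 and 277 in controls and 192, 206 and 296 in the libraries labelled mutant, which overlapped, at -0.07 ± 0.22 (SE, limma, unadjusted p = 0.745, adjusted p = 1). Vcan (versican), the lectican of immature and perivascular matrix, had the opposite sign on chow, at 15.6, 8.86 and 17.0 in controls and 6.09, 9.71, 4.16 and 10.2 in mutants. Those groups overlapped, and the log2 fold change was -0.82 ± 0.35 (SE, limma, unadjusted p = 0.0372, adjusted p = 0.982). Ncan and Tnr differed by -0.06 ± 0.24 and 0.11 ± 0.31.

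Col3a1, the type III fibrillar chain of vessel walls and soft tissue, had a lower mean in libraries labelled mutant than in controls on both diets. It was 6.36, 3.96 and 10.2 in control chow, 3.56, 5.61, 2.33 and 1.40 in mutant chow, 4.64 and 7.11 in control HFD and 1.53, 3.50 and 1.78 in the libraries labelled mutant HFD. The groups overlapped on chow and not on HFD, where the difference was -1.1. Leaving out each library in turn gave -1.36 to -0.83 on HFD, and 5 of 13 alternatives had an unadjusted p under 0.05 (limma). Averaged over the diets the difference was -1.01 ± 0.32 (SE, limma, unadjusted p = 0.00873, adjusted p = 1), with an unadjusted p of at most 0.0434 over 19 alternatives. On chow alone the value leaned on control chow replicate 3, without which it was -0.62 in place of -0.91, with an unadjusted p of 0.201.

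Col20a1, a fibril-associated collagen, had the smallest p-value on chow. It was 3.27, 8.64 and 5.14 in controls and 1.69, 2.18, 0.839 and 2.29 in mutants, without overlap, at -1.24 ± 0.40 (SE, limma, unadjusted p = 0.00894, adjusted p = 0.982). Of the laminins, Lamb1 was 7.01, 5.36 and 9.29 in controls and 3.58, 5.92, 3.26 and 3.53 in mutants, with overlap, at -0.70 ± 0.29 (SE, limma, unadjusted p = 0.0342, adjusted p = 0.982). Lama2, the alpha chain of astrocyte and muscle laminin, rested on 1 library, since control chow replicate 3 had 22.2 and the other 6 libraries on chow had 2.17 to 7.13. Without that library its log2 fold change was -0.44 in place of -1.09. Col12a1 and Col24a1 were the other members higher in mutants, at 1.05 ± 0.47 and 0.95 ± 0.40.

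On HFD the genotypes differed with an unadjusted p under 0.05 in 6 members, 1 higher (1.47%, beside 1.09% of all genes) and 5 lower (7.35%, beside 1.11%). The control group has only 2 libraries. Leaving out either leaves a single library there, so no counts are given for it. The lower count was 3 without control chow replicate 1, mutant chow replicate 4 or mutant HFD replicate 1, beside 1.1%, 1.04% and 1.05% of all genes. The all-member median was -0.14, against -0.01 over all genes. It was -0.28 against 0.01 without control HFD replicate 1, and -0.14 against -0.04 without control HFD replicate 2.

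Nid2 (nidogen 2), which ties laminin to type IV collagen, showed the widest separation. It was 5.10 and 7.48 in control HFD and 2.33, 0.966 and 0 in the libraries labelled mutant HFD, while control chow had 1.35, 3.76 and 1.80 and mutant chow 1.08 to 1.54. The control HFD libraries were above all 10 others. The genotype difference on HFD was -1.94 ± 0.50 (SE, limma, unadjusted p = 0.00196, adjusted p = 1), and averaged over diets it was -1.21 ± 0.32 (SE, limma, unadjusted p = 0.00277, adjusted p = 1). Nid2 shares 437 exon bases with Rtraf on the other strand, so its values carry that uncertainty. Nid1 was 13.5 in control chow replicate 3 and 0.897 to 3.24 in the other 11 libraries.

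Col6a2, a chain of the beaded-filament collagen VI made by fibroblasts and pericytes, was the mirror image. It was 1.40 and 1.38 in control HFD and between 3.49 and 5.35 in the other 10 libraries. The libraries labelled mutant HFD were at 3.67, 3.74 and 4.13, which gave 1.02 ± 0.32 for genotype on HFD (SE, limma, unadjusted p = 0.00745, adjusted p = 1). For diet in controls it gave -1.18 ± 0.32 (SE, limma, unadjusted p = 0.00293, adjusted p = 0.998). Its partner Col6a1 had the same sign for diet in controls, at -0.72 ± 0.40 (SE, limma, unadjusted p = 0.0962, adjusted p = 0.998). Col6a1 was low in control HFD replicate 1 only, at 3.34, with 9.50 in control HFD replicate 2 and 5.07 to 13.4 elsewhere. Col8a2, a network collagen chain, was at -1.09 ± 0.48 for genotype on HFD. Its difference came to -0.35 without control HFD replicate 1, in which Col8a2 was 7.43 against 1.16 to 4.07 elsewhere.

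Promoter sequences of Col3a1 and Col6a2 are shown because these genes had genotype differences of opposite sign. Each is the 250 bases before the annotated start (RefSeq, GRCm38.p6), read 5′ to 3′ along the gene, at chr1:45311288-45311537 on the plus strand for Col3a1 and chr10:76623631-76623880 on the minus strand for the upstream one of the starts of Col6a2. Neither window holds an annotated exon. Capitals mark TATAAA, the CCAAT box or the letters GGGCGG on either strand.
Col3a1: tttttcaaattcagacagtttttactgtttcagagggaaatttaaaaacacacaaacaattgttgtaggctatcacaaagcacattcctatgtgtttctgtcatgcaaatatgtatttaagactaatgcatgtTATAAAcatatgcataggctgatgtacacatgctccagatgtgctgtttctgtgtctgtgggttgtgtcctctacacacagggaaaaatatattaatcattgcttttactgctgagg
Col6a2: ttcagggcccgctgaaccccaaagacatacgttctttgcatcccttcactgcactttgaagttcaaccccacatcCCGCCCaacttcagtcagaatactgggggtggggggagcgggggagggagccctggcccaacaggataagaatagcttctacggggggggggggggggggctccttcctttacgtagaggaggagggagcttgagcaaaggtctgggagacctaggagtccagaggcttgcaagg
The Col3a1 window is A and T rich (35.2% G or C) and holds TATAAA, the letters of a TATA box, once. The Col6a2 window (59.2% G or C) holds the GC box letters GGGCGG once, on the other strand. Of 32851 windows of this length over all genes, 12.4% held TATAAA, 33.8% CCAAT and 32.7% GGGCGG. Windows were found for 49 of the 69 matrix genes, and of their 54 windows 13%, 33.3% and 61.1% held them. A match of letters is a description and does not show a binding site.

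In controls HFD against chow gave 1 member higher (1.47%, beside 1.44% of all genes) and 3 lower (4.41%, beside 2.1%) with an unadjusted p under 0.05. Without control chow replicate 1 there were 6 lower and 0 higher, beside 4.68% and 2.75% of all genes. Without control chow replicate 3 there were 1 and 0, beside 1.89% and 1.41%. Leaving out either control HFD library leaves a single library in that group, so no counts are given for it. Dcn was 44.6, 169 and 169 in control chow and 27.9 and 62.4 in control HFD, which overlapped, at -1.35 ± 0.50 (SE, limma, unadjusted p = 0.0184, adjusted p = 0.998). Without control HFD replicate 1, the library with high Ttr, the Dcn difference was -0.79. Leaving out each library in turn gave -1.99 to -0.79, the lowest without control chow replicate 1. The low control chow library (replicate 1) was also the lowest of that group for the meningeal fibroblast marker sum, at 87.6 against 274 and 478, and control HFD replicates 1 and 2 had 87.9 and 153. Their part in the Dcn difference was not tested. Lum, a relative of Dcn, had a like estimate of -1.13 ± 0.54 (SE, limma, unadjusted p = 0.0579, adjusted p = 0.998). Col28a1 (-1.13 ± 0.49) was the third lower member and Nid2 (1.19 ± 0.50) the higher one. Col28a1 was at -0.73 without control chow replicate 3, and at -0.85 without control HFD replicate 1.

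**Figure D4:**
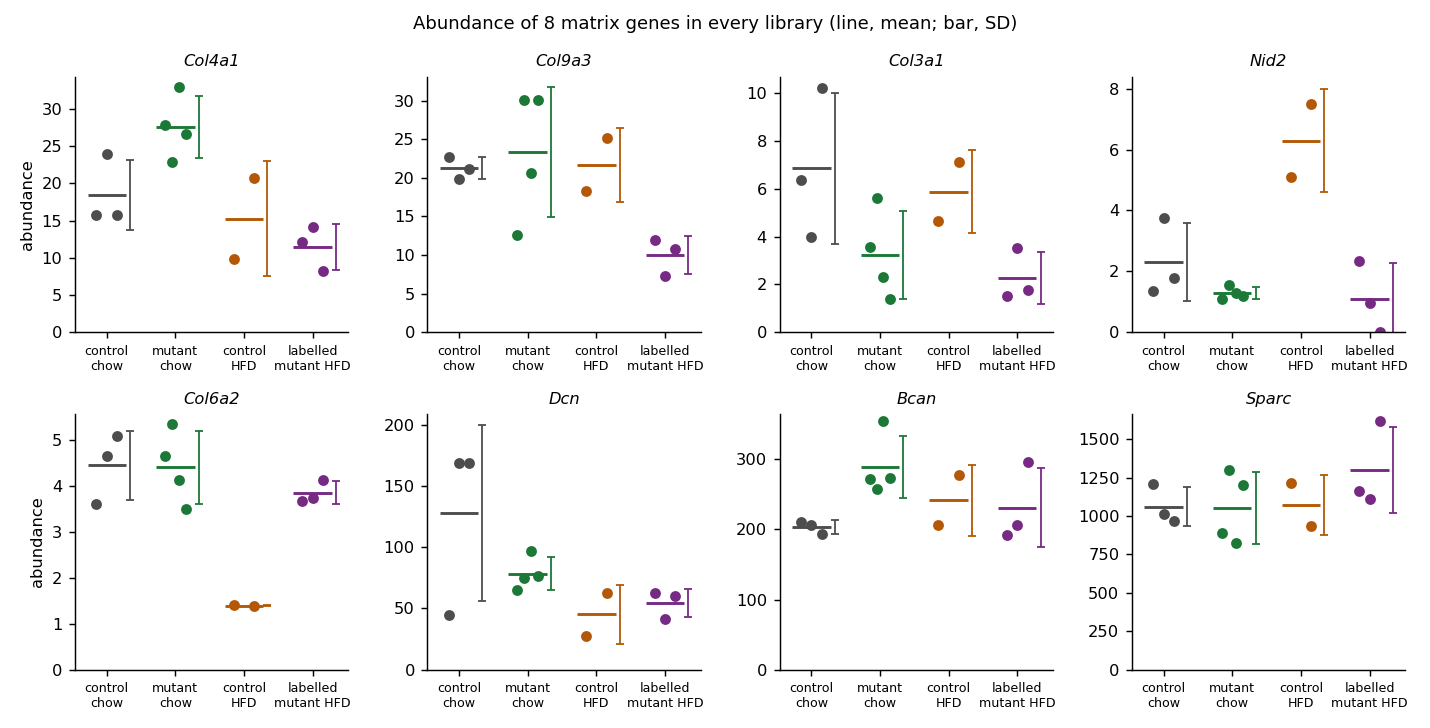
Abundance of 8 matrix genes in each library by group, with the mean as a line and the SD as a bar, on linear axes that start at 0. Col4a1 and Col9a3 are low in the libraries labelled mutant HFD, Nid2 is high and Col6a2 low in both control HFD libraries, and Sparc overlaps between all groups.

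The interaction, which is the mutant diet difference minus the control diet difference, gave 1 member higher (1.47%, beside 1.56% of all genes) and 4 lower (5.88%, beside 1.87%). Without control chow replicate 3 there was 1 lower, beside 2.23% of all genes. Without mutant chow replicate 2 or mutant chow replicate 3 there were 2, beside 1.93% and 2.05%. Without control chow replicate 1 there were 2 lower and 3 higher, beside 1.93% of all genes lower and 2.68% higher. The all-member median of -0.18 was -0.25 without control HFD replicate 1 and -0.03 without control HFD replicate 2, against 0.01 and -0.06 over all genes. The largest estimate was that of Col12a1, at -2.23 ± 0.74 (SE, limma, unadjusted p = 0.0101, adjusted p = 0.999). Without control HFD replicate 2, whose value of 10.1 stood against 2.35 in its partner, it was -1.37. Col11a2, Nid2 and Col9a3 were the others lower and Col6a2 the one higher. Rescaling each column to the same total moved the median of all genes by more than 0.1 in this comparison, from -0.03 to -0.18. It gave 7 lower and 0 higher, beside 2.82% and 0.873% of all genes, with a member median of -0.31. The same rescaling moved the median of all genes for diet in controls from -0.01 to 0.12.

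Averaged over diets, the libraries labelled mutant had 1 member higher (1.47%, beside 1.52% of all genes) and 6 lower (8.82%, beside 1.34%). With a mean of at least 5 there were 2 lower of 35, beside 1.17% of all genes. The higher count was 3 without control chow replicate 2 and 2 without mutant chow replicate 3, beside 1.77% and 1.85% of all genes. Among the 6 were 4 basement membrane genes, Nid2, Nid1, Lamb2 and Lamb1. Lamb2, the most abundant of them, ran from 36.1 to 40.6 in control chow and from 24.3 to 34.1 in mutant chow, and was 27.1 and 42.2 in control HFD and 23.0 to 27.2 in the libraries labelled mutant HFD, at -0.37 ± 0.15 (SE, limma, unadjusted p = 0.0303, adjusted p = 1). The chow groups did not overlap and the HFD groups did. Without control HFD replicate 2 the Lamb2 difference was -0.22.

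Averaged over genotypes, HFD gave 0 members higher, beside 1.6% of all genes, and 8 lower (11.8%, beside 3.69%). The 8 were Col4a1, Col6a2, Dcn, Fn1, Col6a1, Col9a1, Col9a3 and Col28a1, from -0.94 ± 0.33 for Dcn to -0.54 ± 0.23 for Col9a3. There were 14 without control chow replicate 1, beside 5.76% of all genes. Each of leaving out control chow replicate 2, control chow replicate 3 or mutant chow replicate 4 left 5, beside 3.39%, 3.01% and 3.61%. The all-member median was -0.26, and -0.17 without control HFD replicate 1.

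Sparc and Sparcl1, the highest members, overlapped between all groups. Sparc was 965 to 1207 in control chow, 825 to 1301 in mutant chow, 935 and 1212 in control HFD, and 1161, 1114 and 1621 in the libraries labelled mutant HFD. The widest estimate, diet in mutants, was 0.31 ± 0.21 (SE, limma, unadjusted p = 0.176, adjusted p = 0.924). Sparcl1 was 518 to 1323 over the 12 libraries, highest in control HFD replicate 1. Col25a1 differed by 0.19 ± 0.25 for genotype on chow and by -0.32 ± 0.25 for diet in mutants.

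Genes that process or bind this matrix were read from lists of 22, 14, 20 and 7 symbols. None passed the adjusted threshold. Of 19 collagen-processing genes tested, 17 (89.5%) had lower estimates on HFD in mutants, beside 53.1% of all genes, and 17 in controls, beside 50.7%. Adamts2, the enzyme that removes the amino-terminal propeptide of fibrillar procollagens, was an exception, with 4.76 in mutant chow and 15.4 in the libraries labelled mutant HFD, at 1.59 ± 0.36 (SE, limma, unadjusted p = 0.000806, adjusted p = 0.511). On chow it was 9.97 in controls and 4.76 in mutants, at -1.04 ± 0.36 (SE, limma, unadjusted p = 0.0136, adjusted p = 0.982). The lysyl hydroxylase Plod2 (-0.76 ± 0.27) and the prolyl hydroxylase subunit P4ha1 (-0.36 ± 0.17) had lower values on HFD in mutants. So did the receptors Sdc1 (-1.23 ± 0.33), a syndecan, and Itgb5 (-0.51 ± 0.19), an integrin chain. P4ha1 was also lower on HFD in controls (-0.50 ± 0.20). Sdc1 was at -0.97 ± 0.39 for genotype on HFD and -1.34 ± 0.51 for the interaction. The integrin chains Itga1 (0.80 ± 0.31, genotype on chow) and Itgav (-0.74 ± 0.31, genotype on HFD) also had an unadjusted p under 0.05 (limma).

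For genotype on chow, 1 of the 19 processing genes was higher (Adamts3), beside 2.59% of all genes, and 2 were lower (Adamts2 and P4ha2), beside 1.75%, with an unadjusted p under 0.05. Adamts3, of the same enzyme family as Adamts2, was 0.537 in control chow, 1.89 in mutant chow, 3.33 in control HFD and 1.06 in the libraries labelled mutant HFD. Its diet difference in controls was 1.5 ± 0.36 (SE, limma, unadjusted p = 0.00112, adjusted p = 0.998), and its interaction of -1.98 ± 0.47 (SE, limma, unadjusted p = 0.00104, adjusted p = 0.999) had the opposite sign to that of Adamts2, 1.68 ± 0.56 (SE, limma, unadjusted p = 0.0108, adjusted p = 0.999). Timp4, an inhibitor of matrix metalloproteinases, was 13.4 in control chow and 20.6 in mutant chow, and 17.4 in control HFD and 27.7 in the libraries labelled mutant HFD, with estimates of 0.60 ± 0.21 and 0.64 ± 0.25 (SE, limma, adjusted p = 0.982 and 1). It was the 1 protease or inhibitor of 14 past that limit on either diet, beside 2.59% of all genes higher on chow and 1.09% on HFD. Among 5 tested genes of hyaluronan and its link proteins there was none in any comparison.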

How the data were processed

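Total RNA of microdissected ARC was sequenced by the authors, who used Kallisto against mm10 transcripts, summarised by gene, and Sleuth (the submitters' processing notes and the methods). The deposited table holds an abundance signal per gene, which the authors scaled for length and depth. Column totals ran from 922172 to 1254999, so it is not plain TPM, and depth is unknown. Software versions, annotation release and use of strand are not given in the sources used here. Symbols and positions came from GENCODE M21 (GRCm38), which matched 16633 of 16640 gene identifiers.

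Values were tested as log2(value + 1) after a filter (at least 1 in at least 2 libraries) with limma 3.58.1 (trend) in R 4.3.3. The model held the 4 group means over 12 libraries, and its two-sided p-values were adjusted by Benjamini-Hochberg over 15801 genes. The fit was tested on simulated data. Class means are averages of log2 values over the listed genes, Col6a6 included, and were given no test. No pair of libraries held identical values. The values of 1 member are not reported here, though it is in the counts.

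The members, classes, marker and pathway lists were chosen with earlier results of these data known. Genes were named by a rule: members past the adjusted threshold, the 3 highest members of each class, 23 fixed genes and Esr1. It also took the 3 largest rises and falls per comparison among members with a mean of at least 1 and an unadjusted p under 0.05. Pathway genes with an unadjusted p under 0.05 were named too, except in the averaged comparisons. Members outside the rule (Col4a3 to Col4a6, Col6a6, Col8a2 and Col9a1) were named after their values were seen, to complete counts or as partner chains. Alternatives were a pseudocount of 0.1, quantile normalisation, columns rescaled to 1000000, no filter, a mean of at least 5, limma without trend, only the groups compared, array weights, and leaving out each library in turn. A replicate block was added after the data were seen.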

Additional observations from a re-analysis of the deposited data

Results flagged for a closer look

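Of 55 measures checked in the 4 mutant chow libraries, in which chance lets about 1 in 20 stand apart, 5 had a library far from the other 3. In 4 of these the library was mutant chow replicate 3. Col2a1 was 28.2 there against 3.75 to 5.38, a gap of 0.933 of the range of the group, and Col27a1 was 28.9 against 8.98 to 10.5, a gap of 0.925. Col6a3 was 21.0 against 2.19 to 4.68 (gap of 0.868), and Bcan was 355 against 258 to 273 (gap of 0.850). Without that library Bcan on chow differed by 0.39 in place of 0.50 on the log2 scale, with every mutant library still above every control library. The fifth was Lamb1 in mutant chow replicate 2, at 5.92 against 3.26 to 3.58 (gap of 0.880). Groups of 2 and 3 libraries are too small for this check.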

How the results depend on the processing

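No matrix gene passed the adjusted threshold under any alternative in any comparison, with each library left out included. The 46 single-gene differences with an unadjusted p under 0.05 kept their sign in 771 of 771 values, of which 169 were identical to the value reported. They were picked by their p in the same libraries, so a kept sign was nearly given in advance and is no support. The unadjusted p (limma) stayed under 0.05 in 4 of 16 alternatives for Lama2 on chow, and in 16 of 16 for Col4a1 for diet in mutants. The fibrillar, basement membrane and all-member means each moved by less than the within-group SD, also with Col15a1 and Col18a1 added to the basement membrane list. That limit is wide, and some small differences changed sign. With each library left out in turn the fibrillar difference was -0.05 to 0.30 for genotype on chow and -0.77 to -0.42 for diet in mutants. The basement membrane difference was -0.28 to 0.12 for diet in controls and -0.44 to -0.33 for diet in mutants. The counts at an unadjusted p under 0.05, whose alternatives were chosen after seeing the data, moved more, and the cause was not tested. For genotype on chow the higher count of 3 was 1 with quantile normalisation, 5 with rescaled columns and 1 with a mean of at least 5. The shares of all genes higher were then 2.16%, 3.28% and 2.16%. The lower count of 5 was 3 with a pseudocount of 0.1, 1 with rescaled columns, 2 with a mean of at least 5 and 1 with only the groups compared. The shares of all genes lower were then 1.57%, 1.05%, 1.68% and 1.28%. With a mean of at least 5, which leaves 35 members, the lower count was 5 in place of 8 for diet in mutants, beside 3.67% of all genes. It was 1 in place of 5 for genotype on HFD, beside 0.98%, and 5 in place of 8 for diet averaged over genotypes, beside 3.56%. The lower count for genotype on HFD was 2 with a pseudocount of 0.1 and 3 with quantile normalisation, beside 0.949% and 1.09%. For diet averaged over genotypes it was 5 with quantile normalisation, beside 3.08%. Leaving out each library in turn gave 1 to 6 higher and 1 to 6 lower for genotype on chow, 5 to 11 lower for diet in mutants, 3 to 10 lower for genotype on HFD and 3 to 14 lower for diet averaged over genotypes. The labels number no replicates, but the deposited column names do, and nothing ties equal numbers to a shared animal, litter or day. Deviations of same-numbered libraries of different groups correlated at -0.18 to 0.31 over genes (median 0, 15 pairs), against -0.31 to 0.31 (median 0, 38 pairs) for other numbers, so the numbers were not taken to pair them. With a replicate block, an alternative chosen after seeing the data, no matrix gene passed the adjusted threshold. The lower count was then 3 in place of 5 for genotype on chow, beside 1.98% of all genes. For diet in mutants it was 12 in place of 8, beside 4.29%. Low members such as Acan, Tnc and Col6a6 are at levels where the unknown depth limits what can be said.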
